A study of Mus musculus with 3 samples.

Results

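Kinesin and dynein transport motors were examined in cultured dorsal root ganglion neurons as a family of 52 genes out of 30142 genes measured. The members were all genes with a probe set of a single symbol beginning with Kif and a digit, Klc and a digit, Dync1, Dynll, or Dctn and a digit, and the brightest probe set stood for a gene. The 3 media were compared after 72 hours, with 1 array for each. The first held recombinant semaphorin 3E (SEMA3E, 1 µg/ml), a secreted axon guidance protein, and a SEMA3E-blocking IgG, also at 1 µg/ml. The second held SEMA3E at 1 µg/ml alone, and the third was control medium. All 3 media were DMEM with B27, and all cells were primary neurons of male ICR mice, an outbred strain, aged 8 to 10 weeks. The labels give neither the number of animals nor whether the 3 cultures came from 1 pool of cells. With 1 array a medium there is no replicate, so every difference below is a difference between 2 arrays, with no error and no test, and the number of arrays limits its precision.

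Motor proteins walk along microtubules and carry organelles, vesicles and proteins through the cell. Most kinesins walk towards the plus end, which in an axon points to the terminal, so they drive anterograde transport, while cytoplasmic dynein with its partner complex dynactin carries cargo such as signalling endosomes back to the cell body. Sensory neurons of the dorsal root ganglion have very long axons and depend on this traffic. A further set of kinesins works in the mitotic spindle and in cytokinesis and is used by dividing cells, which in these cultures can be the non-neuronal ones.

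Most of the family was measured above background and held the same value on all arrays. A background floor was set at the 95th percentile of 492 vomeronasal receptor genes, which came to 43.7 intensity units or 5.48 on the log2(intensity + 1) scale, the scale of every level and difference below. Of the 52 members 47 lay at or above it, beside 17653 of all 30142 genes. A stricter floor at the 99th percentile kept 42 members, without Kif21b, Kif6, Kif26b, Kif14 and Kif9. Of these 47, 41 (87.2%) had an identical deposited value on all 3 arrays, and 6 (12.8%) differed between some arrays, against 25.1% of the 17653 genes above the floor. Bright genes differed more often, and among genes with a mean of 12 or more 54.5% differed between some arrays, as did 5 of 12 members in that range. An equal value cannot be read as equal RNA: the 65956 probe sets of the control array took 25830 distinct values, and Kif13b and Kif15, which share no probe set, were both listed at 213 units.

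The labels call the cells neurons, and all 12 neuronal markers examined lay above the floor (among them Tubb3, Nefl and Snap25). So did 7 of 7 measured satellite glial markers, 4 of 5 Schwann cell markers and 7 of 7 fibroblast markers. For macrophages 7 of 9 markers did, and for endothelium 5 of 6. Of all 30142 genes 17653 did too, so a place above the floor is weak evidence that a cell type was present. The endothelial markers above the floor lay close to it, from 5.66 (Kdr) to 6.50 (Cdh5). In such bulk RNA, fewer cells of a type and less RNA per cell cannot be told apart. Pearson's r between arrays was 0.9996 to 0.9997 across the genes above the floor, which are not independent replicates. In each pair 79.5% to 81.4% of these genes had equal deposited values, so r says little about how alike the arrays were.

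**Figure D1:**
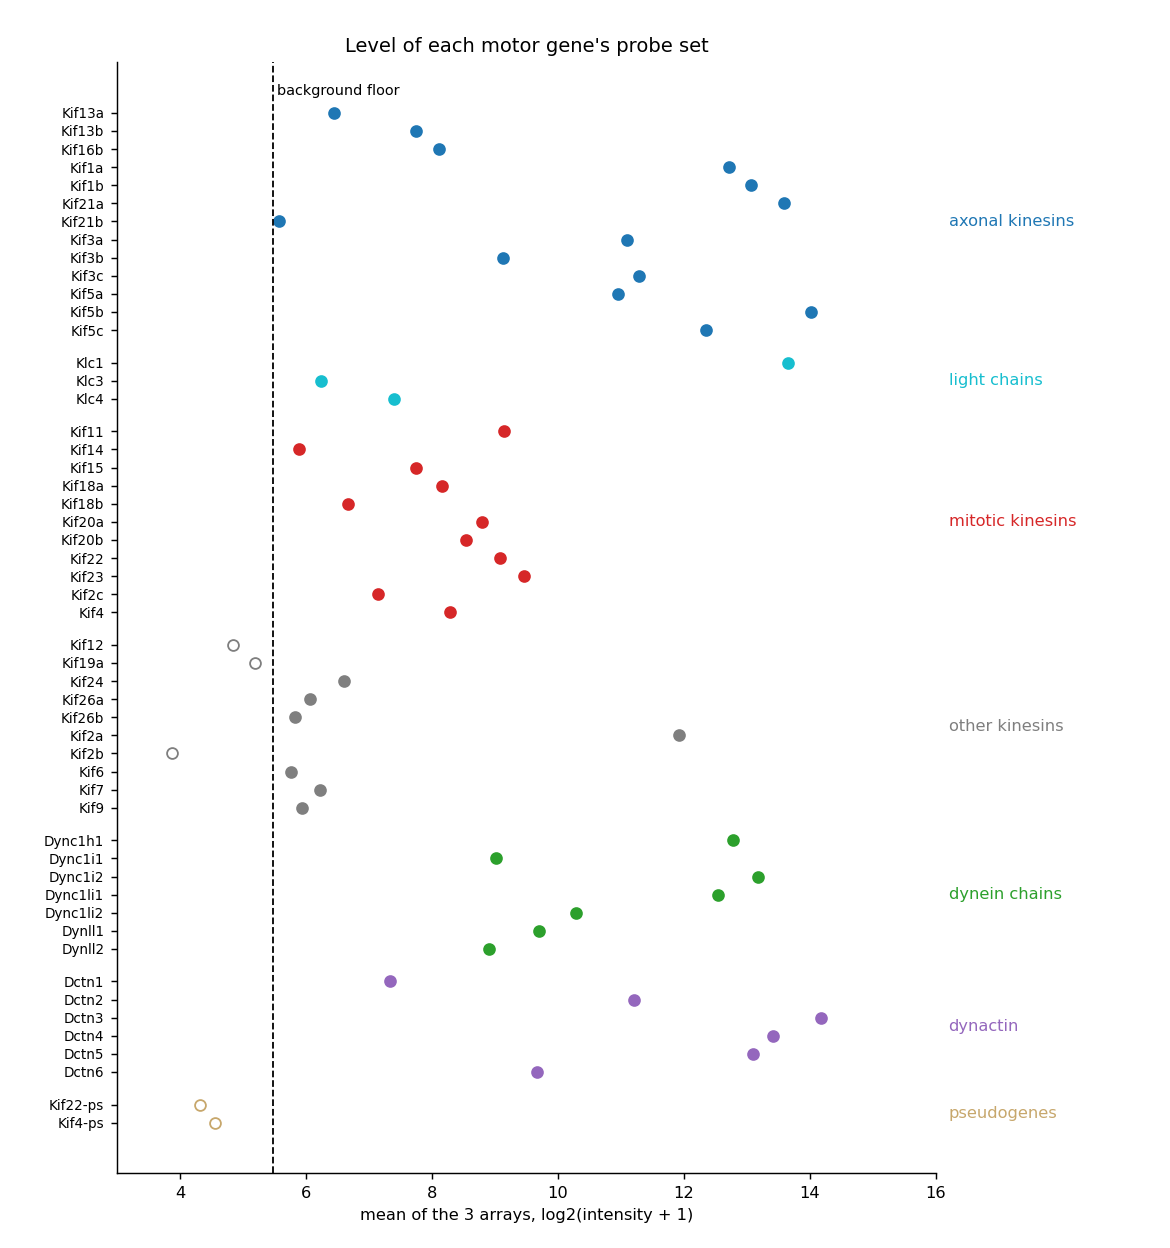
Mean log2(intensity + 1) of each motor gene over the 3 arrays, grouped by role, with filled points at or above the background floor of 5.48 (dashed line) and open points below it. All axonal kinesins, light chains, mitotic kinesins, dynein chains and dynactin subunits lay at or above this floor. Kif21b and Kif14 lay below a stricter floor at the 99th percentile. Probe sets differ in how strongly they bind, so positions are read against the floor and not against each other.

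Kinesin-1, the main carrier of mitochondria and vesicles along axons, is built from paired heavy chains and light chains. Its heavy chain genes were at 10.96 for Kif5a, which is made in neurons, 14.01 for Kif5b, which most cells make, and 12.35 for Kif5c, also neuronal, and each of these values was the same on the arrays with SEMA3E and IgG, with SEMA3E, and of control medium. The light chains, which bind cargo, were likewise identical, with Klc1 at 13.66, Klc4 at 7.40 and Klc3 at 6.24. Kinesin-2, a carrier of vesicles and ciliary cargo, was at 11.09 for Kif3a, 9.13 for Kif3b and 11.28 for Kif3c on all 3 arrays. None of these 9 genes differed between any pair of media.

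Among the kinesin-3 motors, which carry synaptic vesicle precursors and dense core vesicles, Kif1a was furthest apart between arrays. Kif1a (probe set TC0100002827.mm.1), the neuronal carrier of synaptic vesicle precursors, had 7474 intensity units with SEMA3E and IgG, 6179 units with SEMA3E and 6616 units in control medium. It was thus highest with the IgG and lowest with SEMA3E alone. The log2 difference was −0.10 for SEMA3E minus control, 0.27 for SEMA3E with IgG minus SEMA3E, and 0.18 for SEMA3E with IgG minus control. The difference of 0.27 is a ratio of 1.21, and 207 of the 17652 other genes above the floor (1.17%) were at least as far apart in either direction in that pair of arrays. Among genes with a mean of 12 or more, 39 of 1849 others (2.11%) were. Kif1b, which carries mitochondria and synaptic vesicle precursors, differed far less, at 8574 units with SEMA3E and IgG, 8489 with SEMA3E and 8574 in control medium, a log2 difference of −0.01 for SEMA3E minus control that turned to 0.0036 after loess.

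The remaining axonal kinesins were identical on all 3 arrays. These were Kif13a (6.44) and Kif13b (7.74), which carry vesicles to the plasma membrane, Kif16b (8.11), which moves early endosomes, and the kinesin-4 members Kif21a (13.59) and Kif21b (5.58), which restrain microtubule growth. Kif21b was the member closest above the floor. In all, 2 of 13 axonal kinesins differed between some arrays, Kif1a and Kif1b, both lowest with SEMA3E alone on the deposited scale.

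**Figure D2:**
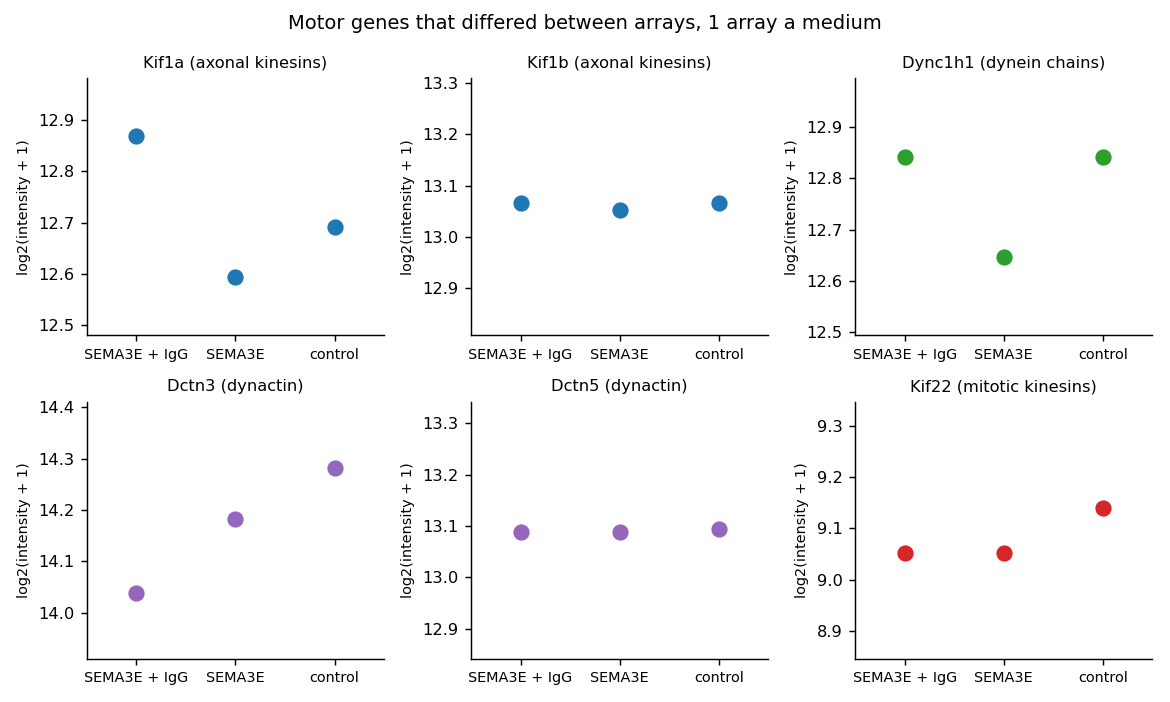
The 6 motor genes above the floor that differed between arrays, as log2(intensity + 1) on the arrays with SEMA3E and IgG, with SEMA3E and of control medium; each point is 1 array and all panels have the same span on the log2 scale. Kif1a and Dync1h1 were lowest with SEMA3E alone, Dctn3 was lowest with SEMA3E and IgG, and Kif22 was highest in control medium.

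Retrograde transport rests on dynein 1, whose heavy chain holds the motor. Dync1h1 (TC1200001210.mm.1), that heavy chain, had 7342 units with SEMA3E and IgG, 6416 with SEMA3E and 7342 in control medium. Only the SEMA3E array was apart, and the other 2 held the same value. The log2 difference was −0.19 for SEMA3E minus control and 0.19 for SEMA3E with IgG minus SEMA3E. In the first of these pairs 396 other genes (2.24%) were at least as far apart in either direction, and in the second 511 (2.89%). For genes with a mean of 12 or more, the shares were 3.52% and 4.43%. The other dynein chains held 1 value on all arrays. They were the intermediate chains Dync1i1 (9.01) and Dync1i2 (13.18), which bind dynactin, the light intermediate chains Dync1li1 (12.55) and Dync1li2 (10.29), which bind cargo adaptors, and the light chains Dynll1 (9.70) and Dynll2 (8.91), hubs that pair many proteins besides dynein. Thus 1 of 7 dynein genes differed.

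Dynactin, which tethers dynein to cargo and to the microtubule, gave 2 of 6 subunits that differed. Dctn3 (TC0400002477.mm.1), the small subunit of the shoulder that joins the sidearm to the filament, had 16832 units with SEMA3E and IgG, 18597 with SEMA3E and 19915 in control medium. It was lower in both media with SEMA3E than in control, and lowest with the IgG. The log2 difference was −0.10 for SEMA3E minus control, −0.14 for SEMA3E with IgG minus SEMA3E and −0.24 for SEMA3E with IgG minus control, where 293 other genes (1.66%) were at least as far apart in either direction. For genes with a mean of 12 or more, that share was 3.24%. Dctn5, of the pointed end complex, was 0.01 lower on the log2 scale in both SEMA3E media than in control, at 8707 and 8707 against 8749 units, but higher after loess and quantile normalization. The sidearm subunit Dctn1 (7.34), which binds microtubules, dynamitin Dctn2 (11.21), and the pointed end subunits Dctn4 (13.41) and Dctn6 (9.67) were identical on all arrays. A second probe set of Dctn6 was identical too, at 6.07, and it was the single second probe set in the family.

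All 11 mitotic kinesins lay above the floor, though Kif14 lay below the stricter floor at the 99th percentile. Of the 11, 10 were identical on all 3 arrays. Kif22, a chromokinesin that pushes chromosome arms, was the exception, at 530.0 units both with SEMA3E and IgG and with SEMA3E, and 563 units in control medium, a log2 difference of −0.09 from control in each. In the pair SEMA3E and control 1177 other genes (6.67%) were at least as far apart. Identical values were held by the spindle motor Kif11 (9.15), which slides poles apart, by Kif15 (7.74), which backs it up, by the cytokinesis motors Kif20a (8.79), Kif20b (8.54), Kif23 (9.46) and Kif14 (5.90), by the chromokinesin Kif4 (8.29), by Kif18a (8.17) and Kif18b (6.67), which limit microtubule length in the spindle, and by the depolymerase Kif2c (7.15).

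Axonal and mitotic kinesins set side by side both stood above background and both were mostly identical. Axonal kinesins differed between some arrays in 2 of 13 genes and mitotic kinesins in 1 of 11, both below the 25.1% of all genes. That share depends on brightness. It was 16.5% for genes above the floor with a mean below 8, and 54.5% for a mean of 12 or more. Kif1a and Kif1b had means of 12.72 and 13.06, while the brightest mitotic kinesin, Kif23, was at 9.46. The classes were thus not matched for brightness. The largest size was 0.27 for an axonal kinesin (Kif1a, SEMA3E with IgG minus SEMA3E) and 0.09 for a mitotic one (Kif22). The axonal kinesins that differed were lowest on the SEMA3E array, as were 6.94% of all genes. On the array with SEMA3E and IgG, Kif1a was above its control value and Kif1b equal to it. The difference of Kif1b between SEMA3E and control was only −0.01 and turned to 0.0036 after loess. Kif22 held 1 level in both SEMA3E media, with the control array alone apart, as for 4.63% of all genes. Whether the classes differ was not tested, since each medium has 1 array.

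The other kinesins were all identical on the 3 arrays. Those above the floor were Kif2a (11.92), a depolymerase that trims axon branches, Kif7 (6.22), of Hedgehog signalling in cilia, Kif24 (6.60), of centrioles, Kif26a (6.07) and Kif26b (5.83), which lack motor activity, and Kif6 (5.76) and Kif9 (5.94). Kif12 (4.84), Kif19a (5.19) and Kif2b (3.88) lay below the floor, as did Kif22-ps and Kif4-ps, which are annotated as pseudogenes (4.32 and 4.55 as means). Kif19a was the member closest below the floor. Probe sets for Kif1c, Kif17 and Kif27 carry more than 1 symbol and were not used here, and Klc2 was not analysed here.

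The first comparison asked which motor genes differed after exposure to SEMA3E. Of the 47 members above the floor, Kif1a, Kif1b, Dync1h1, Dctn3, Dctn5 and Kif22 were lower with SEMA3E than in control, 6 in all, and 0 were higher on the deposited scale, where Dctn5 (0.01 after loess and after quantile normalization) and Kif1b (0.0036 after loess) turn to higher. That is 12.8% of members lower, near the 12.3% of all genes, while 6.21% of all genes were higher. A ratio of 1.1 (0.14 on the log2 scale) was reached by 1 member, Dync1h1, or 2.13%, against 3.74% of all genes. The median difference was 0 for the members and for all genes. The share of members was thus close to or below that of all genes by each of these counts, which are not matched for brightness. Among genes with a mean of 12 or more, 5 of 12 members were lower, against 32.5% of all genes that bright.

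**Figure D3:**
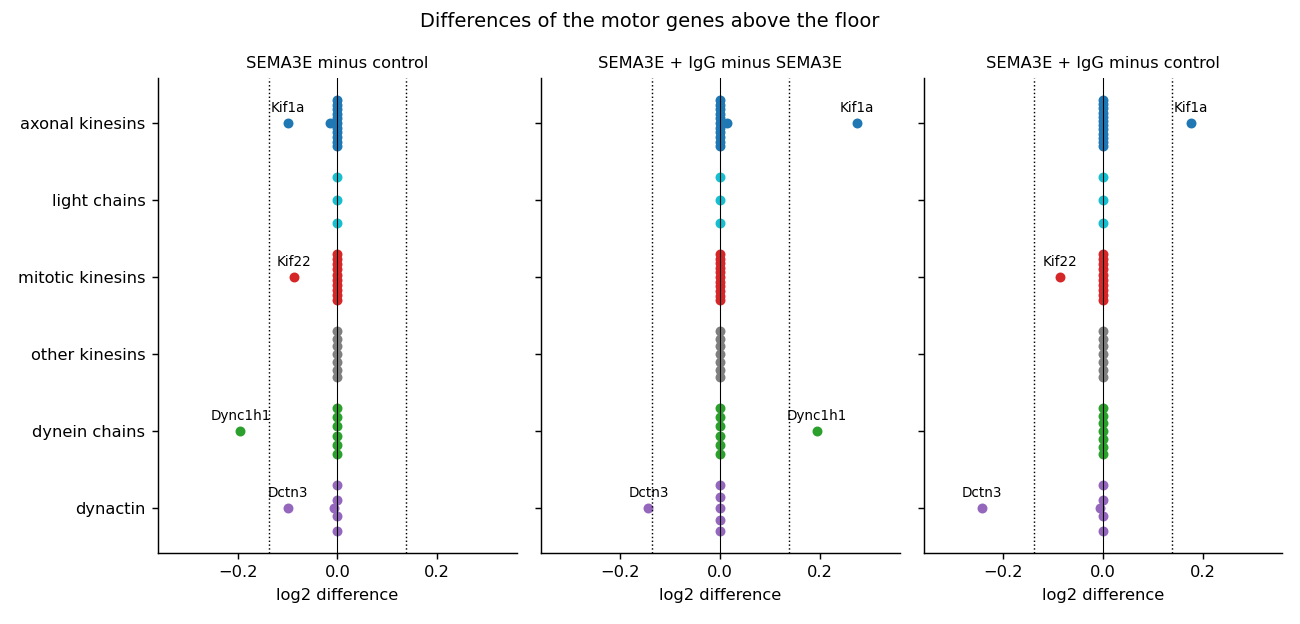
Log2 differences of the 47 motor genes above the floor in 3 pairs of arrays, by role; each point is 1 gene, genes with identical values are spread out along the line at 0, and dotted lines mark a ratio of 1.1. Dync1h1 passed the line in the first pair, Kif1a, Dync1h1 and Dctn3 in the second, and Kif1a and Dctn3 in the third.

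The second comparison asked what the blocking IgG altered in the presence of SEMA3E. With SEMA3E and IgG, 3 members (Kif1a, Kif1b and Dync1h1) were higher than on the SEMA3E array and 1 (Dctn3) was lower, against 10.2% of all genes higher and 10.3% lower. At least 1.1-fold apart were Kif1a (0.27), Dync1h1 (0.19) and Dctn3 (−0.14), or 6.38% of members, against 4.76% of all genes. In the third, SEMA3E with IgG against control medium, Kif1a was higher and Dctn3, Dctn5 and Kif22 were lower, against 7.59% of all genes higher and 11.4% lower. Kif1a (0.18) and Dctn3 (−0.24) were at least 1.1-fold apart, or 4.26% of members, against 4.55% of all genes.

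Seen across the media, the SEMA3E array was below both others for 3 members (Kif1a, Kif1b and Dync1h1, 6.38%), against 6.94% of all genes, and above both for 0, against 4.18%. The first 2 comparisons share the SEMA3E array, which enters them with opposite sign. Genes with another probe set give an idea of how far a single probe set can be relied on. Of 202 genes with a second probe set above the floor, 26 had a brightest probe set at least 1.1-fold apart between SEMA3E with IgG and SEMA3E; the second was at least 1.1-fold apart in the same direction in 10, identical in 8 and opposite in 0. For SEMA3E and control these counts were 9, 9 and 0 of 22. Kif1a, Dync1h1 and Dctn3 have 1 probe set each.

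Other genes of the transport machinery, taken from lists of known members, were also mostly identical. Beside their counts stand the shares of all genes, 12.3% lower and 6.21% higher for SEMA3E minus control and 10.3% lower and 10.2% higher for SEMA3E with IgG minus SEMA3E. Of 37 cargo adaptors and motor regulators above the floor, 4 were lower and 0 higher with SEMA3E than in control, led by Mapk8ip2 (−0.13), a scaffold that links kinase signalling to kinesin-1, and Map7d2 (−0.08), which recruits kinesin-1 to microtubules. With SEMA3E and IgG 3 were higher than on the SEMA3E array and 0 lower, with Mapk8ip2 (0.11) and Kidins220 (0.09), a neurotrophin receptor scaffold, furthest apart. Of 14 further motor subunits, 3 were lower and 0 higher with SEMA3E than in control (Actr1a −0.09, the actin-related filament of dynactin; Cenpe −0.05, a kinetochore kinesin; Kifap3 −0.05, of kinesin-2). With SEMA3E and IgG 2 were higher and 2 lower than with SEMA3E, with Dync2li1 of ciliary dynein at −0.10 and the dynein light chain Dynlrb1 at −0.08.

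Tubulins and microtubule proteins, the tracks, had 9 of 34 lower and 0 higher with SEMA3E than in control, against 6 of 47 motor genes lower and 12.3% of all genes. Of these 34 genes 12 had a mean of 12 or more, and among all genes that bright 32.5% were lower and 7.95% higher in that comparison. Camsap3 (−0.18), which caps minus ends, Tubb3 (−0.16), the neuronal beta-tubulin, and Tubg1 (−0.11), which nucleates microtubules, led. With SEMA3E and IgG 7 were higher and 2 lower than with SEMA3E alone (Tubg1 0.11, Map2 0.09, Tubb2b 0.08, Stmn2 −0.07). Beside them stand 10.2% of all genes higher and 10.3% lower. For genes with a mean of 12 or more, as 12 of these 34 had, the shares were 25.1% higher and 22.2% lower. Of 25 other mitosis genes 5 were lower and 0 higher with SEMA3E than in control (Plk1 −0.11, Cdc20 −0.09, Racgap1 −0.09), against 12.3% of all genes lower, and 5 were higher and 0 lower with SEMA3E and IgG than with SEMA3E, against 10.2% of all genes higher. Among the mitosis genes that differed, Plk1, Racgap1, Cenpf and Ube2c had equal values with SEMA3E and IgG and in control. Only the SEMA3E array was apart in this way for 6.14% of all genes. Cdc20 was instead lower than control in both SEMA3E media, and Mki67 was higher with SEMA3E and IgG than with SEMA3E or in control.

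**Figure D4:**
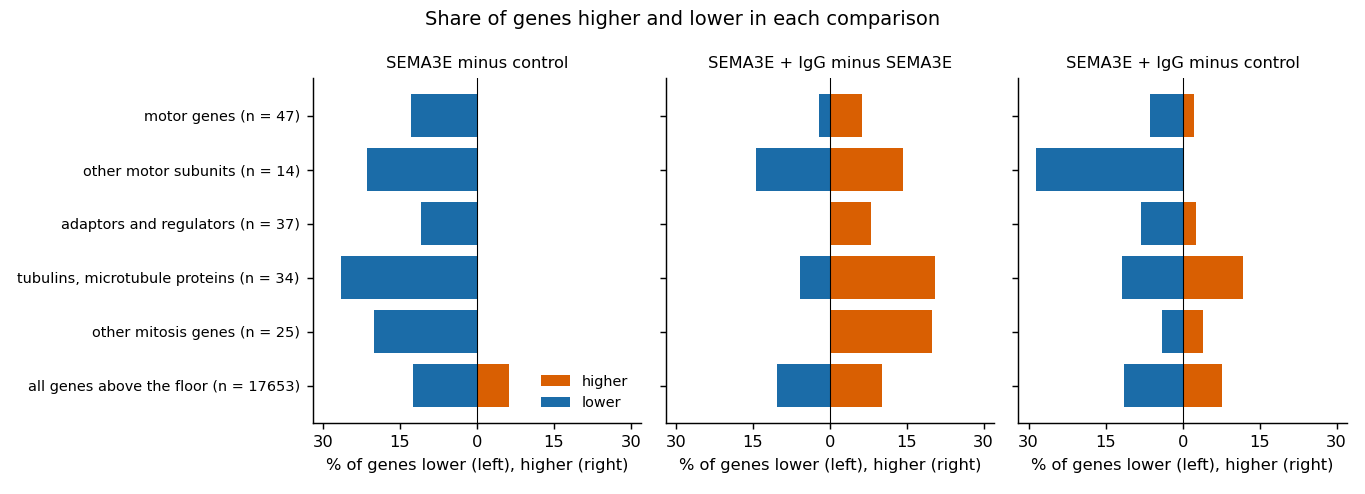
Share of genes above the floor that were lower (left of 0) or higher (right of 0) in 3 pairs of arrays, for the motor genes, 4 lists of related genes and all genes; n is the number of genes, and a gene counts at any difference in its deposited value. With SEMA3E minus control 12.8% of motor genes were lower and 0 higher, beside 12.3% and 6.21% of all genes, on the deposited scale; 2 of the 6 lower motor genes, Dctn5 and Kif1b, turn to higher after loess.

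Markers of the cells in the culture differed between arrays as well. Sums of intensity are weighted to the brightest probe sets. Uchl1, identical on all arrays, held 205992 of the 444654 units of the neuronal markers in control medium. The summed intensity of the 12 neuronal markers was 98.7% of control with SEMA3E, where 7 were lower and 0 higher. It was 98.2% of control with SEMA3E and IgG, where 8 were lower and 0 higher. In the same comparisons 12.3% and 11.4% of all genes were lower, and 32.5% and 29.0% of genes with a mean of 12 or more, as 7 of the 12 markers had. The 7 satellite glial markers summed to 93.3% of control with SEMA3E (4 lower, 1 higher). With SEMA3E and IgG they summed to 89.5% (4 lower, 0 higher). Those lower were Kcnj10 (−0.24 with SEMA3E, −0.54 with SEMA3E and IgG), Fbln5 (−0.28, −0.30), Sparcl1 (−0.23, −0.27) and Atp1b2 (−0.26 in both). All 4 were at least 1.1-fold lower in both comparisons, beside 3.74% and 4.55% of all genes at least 1.1-fold apart. Fabp7 was higher with SEMA3E (0.13). The 7 fibroblast markers summed to 100.6% and 99.6% of control, with 2 lower and 1 higher in both, and went both ways. Ogn, a matrix proteoglycan, had 861 units with SEMA3E and IgG and 1034 with SEMA3E, against 1536 in control medium, while Mgp, an inhibitor of calcification, had 3796 and 3793 against 3182 units. The 7 macrophage markers summed to 106.4% of control with SEMA3E (2 higher, 1 lower) and 104.2% with SEMA3E and IgG (1 higher, 2 lower). Lyz2 was furthest apart (0.19 and 0.11) and held 2171 of their 4019 units in control medium. The 5 endothelial markers summed to 97.8% in both, with Cldn5 alone lower. The 4 Schwann cell markers were identical on all arrays. None of the markers measured was at 0, and the part of these shifts in the values of Kif1a, Dync1h1, Dctn3 and Kif22 was not tested.

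The promoters of axonal and mitotic kinesin genes were read for motifs, a property that does not depend on the arrays. Promoters of mitotic genes commonly hold a CHR element, where repressor complexes bind in resting cells, and a CCAAT box, bound by the factor NF-Y. RefSeq windows of 300 bases on GRCm38.p6, from 250 before to 50 after the annotated start, matched 40 of the 52 members by symbol. They were searched for TTTGAA and TTCGAA (forms of the CHR) and for CCAAT on both strands, none of which overlap in the windows printed here. TTTGAA was found in 9 of 10 mitotic kinesin windows, 0 of 9 axonal kinesin windows and 18.1% of the 27025 genes with a window, taking the first window listed for each. In 7 of the 10 mitotic kinesins it lay within 30 bases of the start, a distance chosen after the positions were seen, against 0 of 9 axonal kinesins and 3.10% of all genes. CCAAT was found in 6 of 10, 3 of 9 and 37.9%, and TTCGAA in 0 of 10, 0 of 9 and 1.57%. Elsewhere in the family a CHR form was found in 2 of 9 other kinesin windows and 2 of 4 dynactin windows (Dctn1 and Dctn3), against 19.4% of all genes. In the other kinesins it began 9 bases before the start (Kif26b, TTTGAA) and 26 before it (Kif24, TTCGAA). A match is a description of the letters and not a site, and no arrays of dividing against resting cells were compared here.

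Windows are shown for the members furthest apart between arrays and for 3 mitotic kinesins, to let both classes be read side by side, each 5′ to 3′ on the strand of its gene with matches in capitals. The mitotic kinesins Kif11 (chr19:37376132-37376431, plus strand), Kif22 (chr7:127042371-127042670, minus strand) and Kif23 (chr9:61946750-61947049, minus strand) hold matches close to the start, and Kif22 holds another pair farther off.
Kif11: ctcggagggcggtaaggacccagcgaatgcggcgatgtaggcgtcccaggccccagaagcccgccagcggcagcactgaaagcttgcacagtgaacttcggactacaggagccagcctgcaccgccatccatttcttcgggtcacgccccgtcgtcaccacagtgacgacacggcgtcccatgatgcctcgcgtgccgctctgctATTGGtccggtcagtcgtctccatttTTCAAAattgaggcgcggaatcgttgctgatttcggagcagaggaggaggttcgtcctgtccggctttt
Kif22: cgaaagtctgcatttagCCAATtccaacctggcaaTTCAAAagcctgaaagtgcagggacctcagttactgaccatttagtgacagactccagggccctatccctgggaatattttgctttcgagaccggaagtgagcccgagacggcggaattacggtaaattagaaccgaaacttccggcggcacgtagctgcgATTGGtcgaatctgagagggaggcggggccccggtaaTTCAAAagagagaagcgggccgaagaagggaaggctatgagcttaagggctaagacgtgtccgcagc
Kif23: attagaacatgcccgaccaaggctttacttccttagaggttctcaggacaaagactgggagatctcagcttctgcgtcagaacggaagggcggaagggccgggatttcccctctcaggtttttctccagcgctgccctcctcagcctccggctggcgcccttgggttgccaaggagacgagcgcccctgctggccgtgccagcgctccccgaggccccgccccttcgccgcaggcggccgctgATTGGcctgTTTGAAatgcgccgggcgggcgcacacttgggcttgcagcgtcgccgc
In Kif22 a TTTGAA on the opposite strand begins 17 bases before the start and a CCAAT on the opposite strand 54 before it, and a second TTTGAA and a second CCAAT begin 215 and 233 bases before it. Kif1a (chr1:93101825-93102124, minus strand, the first of 2 windows) and Dync1h1 (chr12:110601145-110601444, plus strand) hold none of the motifs.
Kif1a: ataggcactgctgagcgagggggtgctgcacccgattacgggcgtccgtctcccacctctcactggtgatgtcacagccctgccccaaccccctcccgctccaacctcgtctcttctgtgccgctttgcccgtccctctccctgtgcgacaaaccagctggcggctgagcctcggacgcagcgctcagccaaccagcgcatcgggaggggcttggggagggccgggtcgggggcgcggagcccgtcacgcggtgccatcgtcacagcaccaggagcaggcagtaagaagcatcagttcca
Dync1h1: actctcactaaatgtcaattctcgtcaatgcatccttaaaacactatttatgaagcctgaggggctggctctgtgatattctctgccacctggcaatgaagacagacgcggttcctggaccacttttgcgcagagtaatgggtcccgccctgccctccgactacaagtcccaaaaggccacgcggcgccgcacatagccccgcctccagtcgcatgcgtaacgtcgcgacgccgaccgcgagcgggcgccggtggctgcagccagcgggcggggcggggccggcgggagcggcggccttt
Dctn3 (chr4:41723114-41723413, minus strand) holds 1 TTCGAA and 1 CCAAT on the opposite strand.
Dctn3: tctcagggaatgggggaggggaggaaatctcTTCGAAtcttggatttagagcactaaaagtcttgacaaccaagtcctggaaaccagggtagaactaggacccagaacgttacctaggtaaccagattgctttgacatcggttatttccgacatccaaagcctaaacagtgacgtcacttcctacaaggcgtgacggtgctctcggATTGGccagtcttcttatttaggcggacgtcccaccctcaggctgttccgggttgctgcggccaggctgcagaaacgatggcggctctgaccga
The TTCGAA of Dctn3 begins 219 bases before the start.

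**Figure D5:**
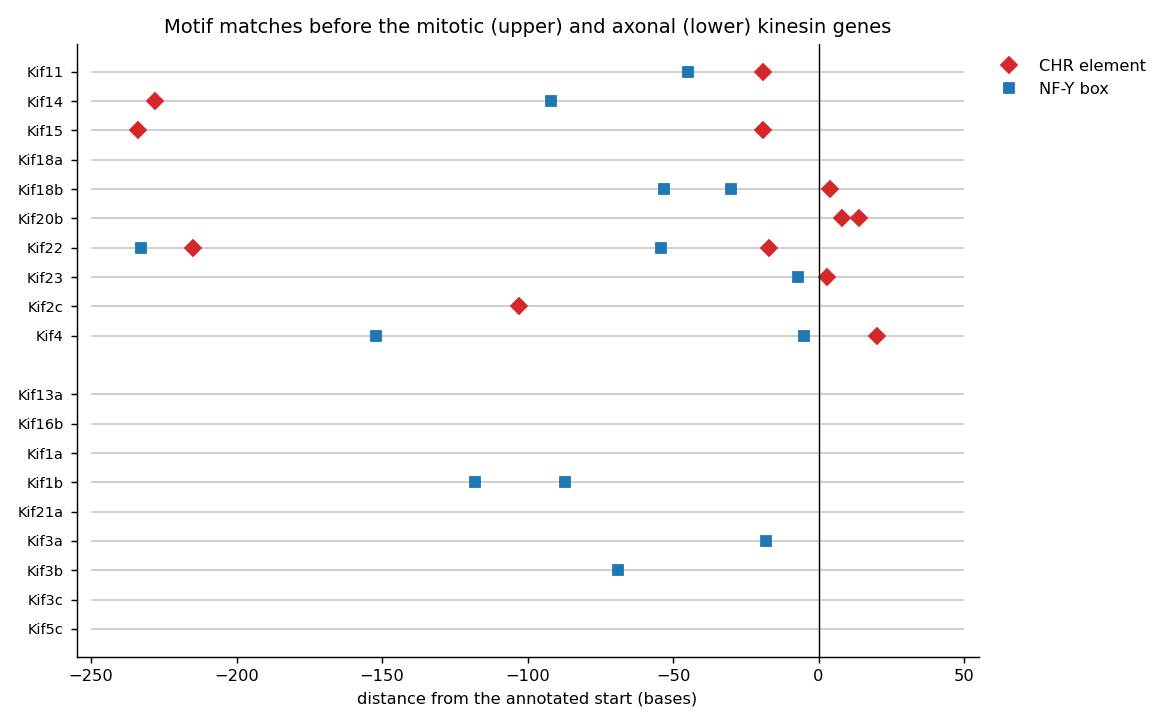
Matches to CHR forms (red diamonds, CHR element) and to CCAAT on either strand (blue squares, NF-Y box) in the promoter windows of 10 mitotic kinesins, above, and 9 axonal kinesins, below, by distance of the first base of the match from the annotated start, in bases. CHR matches appear in 9 of the mitotic and 0 of the axonal kinesin windows.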

How the data were processed

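RNA was amplified and labelled with biotin using a GeneChip WT Pico kit, per the labels, and measured on 3 arrays of 65956 probe sets. The values are the intensity per probe set deposited by the authors, for which the submitters' processing notes name Affymetrix Expression Console; version, summarisation, normalization and build: not given in the sources used here. From them log2(intensity + 1) was computed. Names come from the platform annotation: 30604 probe sets have 1 symbol, 2146 several and 33206 none. Of these symbols 827, 0 of them members, were updated through a mouse RefSeq table (GRCm38.p6). All members are named. The members and lists were chosen with earlier results of these data known, and roles were assigned from general knowledge. A gene differs where 2 deposited values are not equal. Alternatives were another offset, centring, loess, quantile normalization, the mean over probe sets, other floors and other folds. The bands of brightness were chosen after the values were seen. Counting was tested on simulated shifts. Python 3.11.15, numpy 2.4.6, pandas 2.3.3, statsmodels 0.14.6 and matplotlib 3.10.9 were used.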

Additional observations from a re-analysis of the deposited data

How the results depend on the processing

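Kif1a, Dync1h1 and Dctn3 kept the direction of each difference of at least 1.1-fold under loess and quantile normalization. Centring, the offset of 16 and the mean over probe sets are no check of direction. Centring moved every gene by 1 constant, 0.0062 against control and 0 between the SEMA3E media, too little to reverse these differences. An offset cannot change which of 2 values is higher, and these genes have 1 probe set each. Over all these settings the ranges were 0.27 to 0.28 for Kif1a and 0.19 to 0.20 for Dync1h1 (SEMA3E with IgG minus SEMA3E). They were −0.19 to −0.18 for Dync1h1 (SEMA3E minus control) and −0.27 to −0.23 for Dctn3 (SEMA3E with IgG minus control). Counts of members moved by more than 1.5 times in these cases. For the offset, centring, loess and quantile normalization, only members with unequal deposited values were counted as higher or lower. Members with identical deposited values could therefore not enter those counts, whatever the rescaling did to them. After quantile normalization 1 member was higher with SEMA3E than in control, in place of 0, and 2 with SEMA3E and IgG than in control, in place of 1, because Dctn5 took the opposite sign (0.01 and 0.0050). After loess 2 were higher in each of these comparisons, with Dctn5 at 0.01 in both and Kif1b at 0.0036 in the first. With no floor, where Kif22-ps and Kif4-ps enter, 2 were higher with SEMA3E than in control, 2 higher with SEMA3E and IgG than in control, and 2 lower with SEMA3E and IgG than with SEMA3E. At a ratio of 21 to 20, 4 members were apart between SEMA3E and control, in place of 1, and at a ratio of 5 to 4, 0 were apart in all 3 comparisons. The cause was not tested, except that a lower or higher fold and floor change the members counted. No paired analysis was possible because each medium has 1 array, and no array could be left out for the same reason.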
